A study of Mus musculus with 17 samples.

Results

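The comparison described here set 1 pg of cortical mRNA amplified for 4 rounds against 1 pg amplified for 2 rounds. It comprised 6 of the 17 arrays of the amplification controls, 3 arrays for each number of rounds, which were chosen by the input and the rounds in their titles. All 17 arrays carried mRNA of the cortex of adult female C57/BL6 mice without treatment. The labels do not give the number of animals, and the methods describe aliquots of 1 cortical mRNA that were diluted and amplified independently. The arrays of a group are thus separate amplifications of 1 RNA, so that a p-value speaks of how far repeated amplifications scatter, and animals were not compared. A single array of 5 µg unamplified mRNA, called bulk here, served as the point from which both sides were measured. Arrays of 0.1 pg (3 after 4 rounds, 3 after 2 rounds) and of 10 pg (3 after 4 rounds, 1 after 2 rounds) completed the series. The labels also describe a last amplification with a commercial kit, and whether that step is counted in the 2 or 4 rounds is not given in the sources used here.

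In antisense RNA (aRNA) amplification, mRNA is copied to cDNA from a primer that joins oligo(dT) to a T7 promoter, and T7 RNA polymerase then transcribes many antisense copies from that cDNA. A further round starts from the aRNA, which is copied back to cDNA with random primers and transcribed again, so that products shorten toward the 3' end of the transcript with each round. At very small inputs, a transcript present in few molecules may be missed when the first cDNA is made, and that loss is carried through all later rounds. The procedure is used to profile the mRNA of single neurons and of their dissected dendrites.

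Levels are log2 units above or below the array's median, after each array was centred and scaled by its range between the 10th and the 90th percentile. A gene's value is that of its probe set with the largest average on the 17 arrays, and single arrays are given in the order of replicates 1, 2 and 3. Differences are 4 minus 2 rounds in log2, with standard errors (SE) and Benjamini-Hochberg adjusted p from limma fitted to all 45037 probe sets and all 17 arrays, and a probe set or gene is called changed at an adjusted p under 0.05. The number of arrays limits the precision, and the single bulk array has no replicate, so its own deviation is contained in every distance from it.

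The arrays did not fall cleanly by their rounds. Replicate 2 after 4 rounds correlated with the 2-round arrays at a Pearson's r of 0.830 to 0.839 over the probe sets, above its r of 0.771 with replicate 3 of its own group and below its 0.857 with replicate 1. Replicates 1 and 3 correlated with the 2-round arrays at 0.749 to 0.773 and at 0.680 to 0.706. The 2-round arrays correlated among themselves at 0.882 to 0.899, and with the arrays of 0.1 pg after 4 rounds at 0.855 to 0.908. With the arrays of 0.1 pg after 2 rounds, which share their rounds, they correlated at only 0.722 to 0.787. The 4-round arrays of 1 pg correlated with those of 0.1 pg at 0.680 to 0.846. Counts of changed probe sets and shares nearer to bulk are therefore also given without replicate 2. Gene lists and shares by level in bulk were not recounted without it. The median SD over 3 arrays was 0.525 after 4 rounds and 0.496 after 2 rounds, while 838 probe sets (1.86%) spanned more than 4 log2 units among the 4-round arrays and 64 (0.142%) did so among the 2-round arrays.

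Pan-neuronal and astrocyte markers had means above the array median on both sides, which alone does not show presence. The 19 pan-neuronal genes, such as Snap25, Elavl4 and Eno2, had mean levels of 2.21 to 2.70 on the 4-round arrays, 1.59 to 2.12 on the 2-round arrays and 2.99 in bulk. The 15 astrocyte markers had means of 0.87 to 1.65, 1.84 to 2.11 and 2.31 on the same arrays. The 15 oligodendrocyte and myelin markers had means of 0.72 to 0.87 after 4 rounds and 0.87 to 0.98 after 2 rounds. Those of the 12 microglial markers were 0.87 to 1.16 and 1.05 to 1.29. The 33 Hox genes, taken here as genes of other tissues than cortex, had means as high, at 0.70 to 1.04 and 1.11 to 1.35. The 7 markers of choroid plexus and ependyma were below the array median on every one of these arrays, at means of -0.55 to -0.16 after 4 rounds, -0.47 to -0.05 after 2 rounds and -0.46 in bulk. The 6 blood markers had means of -0.33 to 0.12 after 4 rounds, 0.39 to 0.69 after 2 rounds and -0.55 in bulk, and 0 of the 6 changed by limma (1 at an unadjusted p under 0.05). The part of these markers in the results was not tested.

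Between 4 and 2 rounds at 1 pg, 1599 of 45037 probe sets changed (3.55%), 818 higher (1.82%) and 781 lower (1.73%) after 4 rounds. Among 18193 genes, 753 changed (4.14%), 352 higher (1.93%) and 401 lower (2.2%). The arrays of both sides did not overlap for 751 of these 753 genes (4.13% of all), beside 32.4% of all genes without the test. Replicate 2 was the 4-round array closest to the 2-round side for 457 of the 818 higher and 597 of the 781 lower probe sets. Without it 3400 probe sets changed (1597 higher, 1803 lower), of which 1430 were among the 1599. Leaving out any other of the 6 arrays gave between 138 and 453 changed probe sets. The methods' t-test with Benjamini-Hochberg adjustment called 1 probe set, against 8876 at an unadjusted p under 0.05.

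The 4-round arrays lay nearer to bulk over the whole array. Their median absolute difference from bulk was 0.653, 0.698 and 0.722 log2, against 0.941, 0.929 and 0.967 on the 2-round arrays. The groups did not overlap, with a difference of -0.25 and an exact two-sided permutation p = 0.1, the smallest that 3 against 3 arrays allow, so that no such test could pass 0.05. Pearson's r with bulk was 0.782, 0.765 and 0.753 after 4 rounds and 0.692, 0.705 and 0.681 after 2 rounds, given as a description since probe sets are not independent. The 4-round arrays were also the nearer ones in each of 4 equal sets of probe sets formed by the level in bulk. Medians per array were 0.585 to 0.998 after 4 rounds and 0.788 to 1.21 after 2 rounds over the 4 sets, with no overlap within a set. For the highest 10%, 5% and 1% of bulk the arrays of both sides overlapped. With the mean of 10 pg after 4 rounds in place of bulk, the distances were 0.517, 0.515 and 0.591 after 4 rounds and 0.802, 0.783 and 0.833 after 2 rounds.

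The order changed at the very top of the array. Of the 182 genes in the top 1% of bulk, each taken by the median of its probe sets, the 4-round arrays kept 74.7%, 73.1% and 72.0% in their own top 1%, and the 2-round arrays 76.9%, 80.8% and 80.8%. The 2-round arrays were the higher ones there without overlap (exact two-sided permutation p = 0.1). Of the top 10%, by contrast, the 4-round arrays kept 63.4%, 61.6% and 57.4% and the 2-round arrays 55.6%, 57.01% and 55.1%, again without overlap and with an exact permutation p = 0.1. For the top 5%, the shares were 65.8%, 64.6% and 58.8% after 4 rounds and 60.2%, 61.5% and 60.3% after 2 rounds, which overlapped (exact permutation p = 0.4). When a gene was instead taken by its probe set of largest average, the difference in the top 5% turned to -3.41 percentage points (exact permutation p = 0.2).

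**Figure D1:**
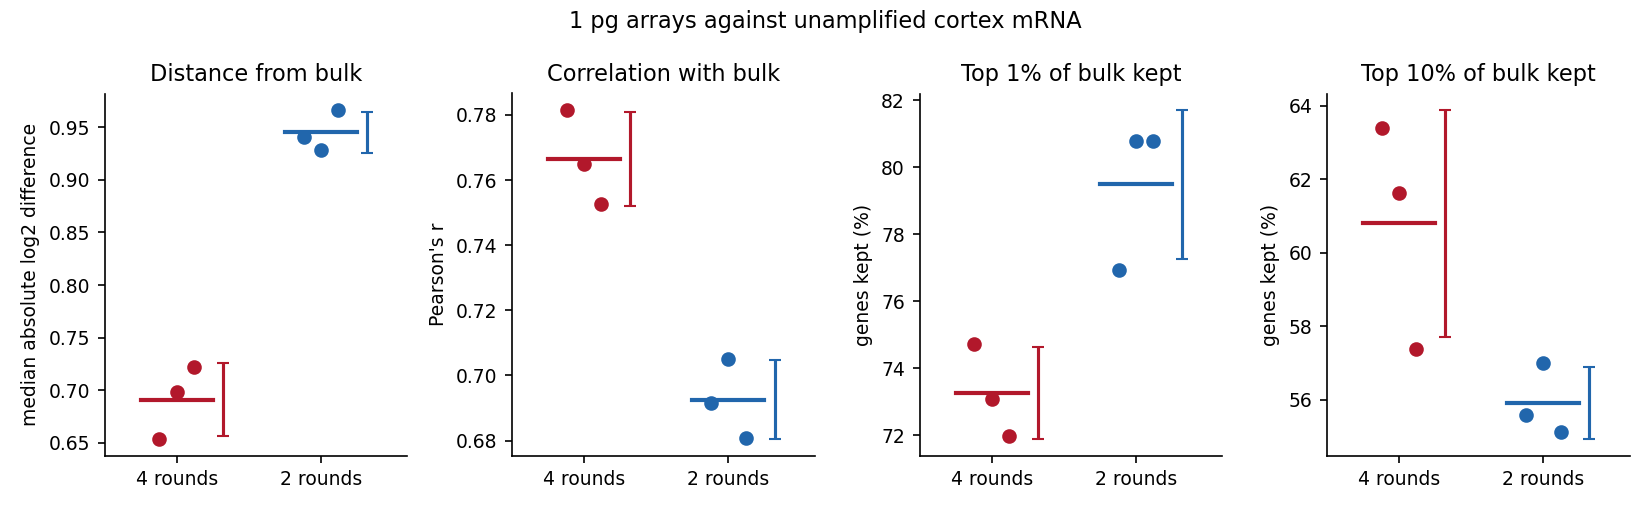
Each of the 6 arrays of 1 pg against bulk: median absolute log2 difference, Pearson's r over the probe sets, and the percentage of the top 1% and of the top 10% of genes of bulk that stayed in the same top share (vertical axes, which do not start at 0). Points are arrays, horizontal lines show means, bars show the SD over 3 arrays (4 rounds left, 2 rounds right). The 4-round arrays lie nearer to bulk by the first 2 measures and in the top 10%, and the 2-round arrays kept more of the top 1%.

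Of the changed probe sets, most lay nearer to bulk after 4 rounds, and more so among the falls. The mean of the 4-round arrays was the nearer one for 606 of 818 higher probe sets (74.1%) and for 683 of 781 lower ones (87.5%), beside 63.2% of all probe sets. Bulk lay below both sides for 429 of the lower probe sets, between them for 324 and above both for 28. For the higher ones it lay between the sides for 523, above both for 260 and below both for 35. The lower probe sets had a median level of 0.20 after 4 rounds, 2.76 after 2 rounds and 0.13 in bulk, and the higher ones of 2.07, -0.51 and 1.29. Where the 2 distances differed by more than 1 log2 unit, the 4-round side was nearer for 482 and the 2-round side for 117 of the higher probe sets, for 609 and 54 of the lower ones, and for 7716 and 2245 of all probe sets. The 4-round side thus held 80.5% of such higher probe sets, close to its 77.5% among all, and 91.9% of the lower ones. The share among the higher probe sets was 56.7% without replicate 2 and 61.3% without replicate 3, beside 60.6% and 62.5% of all probe sets, whereas among the lower ones it was 82.1% and 89.5%. Measured from the single 10 pg array after 2 rounds, the shares were 54.8% and 77.0%, beside 54.2% of all probe sets.

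The 15 largest rises after 4 rounds ran from 4.30 to 6.65 log2 and were, in falling order, Pard6b, Snx17, Rnf213, Nek4, Myoz2, Rtbdn, Tubb2b, Fam160b2, Kcnt1, Ptar1, Adamtsl1, Urah, Mmd, Dzip1 and Scarb2. Unlike most rises, 11 of these 15 lay nearer to bulk after 2 rounds and 4 after 4 rounds. Pard6b, a cell polarity protein, was at 5.11, 3.19 and 5.71 after 4 rounds, against -2.23, -1.997 and -1.70 after 2 rounds, with -1.54 in bulk. Its difference was 6.65 (SE 0.92, adjusted p = 0.00455 from limma), and the 2-round arrays were the ones at the level of bulk. Nek4, a protein kinase, was at 4.84, 6.90 and 4.97 after 4 rounds, against 0.71, 0.39 and 0.43 after 2 rounds, and its level of 2.63 in bulk lay between the sides. It rose by 5.06 (SE 0.52, adjusted p = 0.00132 from limma). Tubb2b, a beta-tubulin of neurons, was at 6.52, 6.84 and 6.15 after 4 rounds, against 1.80, 1.56 and 1.79 after 2 rounds and 1.83 in bulk, a rise of 4.78 (SE 0.59, adjusted p = 0.00316 from limma). Replicate 2 stood more than 3 log2 units below both other 4-round arrays in 4 of the 15 genes. These included Snx17, a sorting nexin of endosomes, at 5.40, 0.67 and 5.77 after 4 rounds, and Adamtsl1, a protein of the extracellular matrix, at 5.73, 1.78 and 6.37.

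Other rises ended at the level of bulk, among them genes that are high in cortex. Rab6a, a GTPase of Golgi traffic, was at 4.88, 3.55 and 4.61 after 4 rounds, against 0.03, 1.03 and -0.61 after 2 rounds, with 4.46 in bulk, and rose by 4.19 (SE 0.62, adjusted p = 0.00538 from limma). Map1b, a microtubule-associated protein of growing axons, was at 4.62, 4.81 and 5.21 after 4 rounds, against 0.86, 1.54 and -0.24 after 2 rounds and 5.35 in bulk. It rose by 4.16 (SE 0.62, adjusted p = 0.00559 from limma), and its 3 arrays after 2 rounds all lay more than 3 log2 units below bulk. Mmd, a membrane protein named for macrophage differentiation, was at 4.52 ± 1.30 after 4 rounds, against 0.18 ± 0.92 after 2 rounds (SD, n = 3 each), with 4.63 in bulk. Myoz2, a protein of the muscle sarcomere, averaged 3.58 ± 1.55 and -1.30 ± 0.60 (SD, n = 3 each) on the same sides, with 3.56 in bulk, and Urah, an enzyme of urate breakdown, averaged 3.38 ± 1.25 and -0.97 ± 0.36 (SD, n = 3 each), with 2.94 in bulk. Of the 351 higher genes whose arrays did not overlap, 204 had their 4-round mean and 69 their 2-round mean within 1 log2 unit of bulk.

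Most of the largest falls ended near the level of bulk. The 15 largest ran from -5.30 to -3.72 log2 and were Carnmt1, Pex6, Lsamp, Gab1, Bmp2k, Khnyn, A930005H10Rik, Nqo2, Taf8, Cd93, Adgrg3, G2e3, Prima1, Pcyt1a and Gm1976, of which 14 lay nearer to bulk after 4 rounds. Carnmt1, a methyltransferase of carnosine, was at -1.86, -2.92 and -0.26 after 4 rounds, against 3.25, 4.24 and 3.36 after 2 rounds, with -2.09 in bulk. Its difference was -5.30 (SE 1.05, adjusted p = 0.0166 from limma), and the 2-round arrays stood more than 5 log2 units above bulk. Gab1, an adaptor of receptor tyrosine kinases, was at -0.58, 0.92 and -0.91 after 4 rounds, against 4.41, 4.06 and 3.64 after 2 rounds and 1.16 in bulk, and fell by 4.23 (SE 0.61, adjusted p = 0.00538 from limma). Lsamp, an adhesion molecule of limbic neurons, was at 2.19, 2.13 and 3.45 after 4 rounds, against 7.63, 6.63 and 6.48 after 2 rounds, with 3.71 in bulk. Prima1, the membrane anchor of acetylcholinesterase in the brain, averaged -0.28 ± 1.08 after 4 rounds, against 3.56 ± 0.40 after 2 rounds (SD, n = 3 each), with -1.07 in bulk. Pcyt1a, an enzyme of phosphatidylcholine synthesis, averaged -0.24 ± 0.72 and 3.49 ± 0.36 (SD, n = 3 each), with -0.02 in bulk. Of the 400 lower genes whose arrays did not overlap, 301 had their 4-round mean and 41 their 2-round mean within 1 log2 unit of bulk.

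A smaller group of genes fell away from bulk after 4 rounds. G2e3, a ubiquitin ligase, was at -1.86, -1.81 and -2.48 after 4 rounds, against 2.73, 1.80 and 0.91 after 2 rounds, with 2.42 in bulk, a difference of -3.86 (SE 0.56, adjusted p = 0.00538 from limma). Npnt, an extracellular matrix protein, was at 0.02, 1.46 and 0.00 after 4 rounds, against 4.00, 3.01 and 4.45 after 2 rounds and 4.31 in bulk. Npnt fell by 3.33 (SE 0.50, adjusted p = 0.00583 from limma), and each 4-round array was more than 2 log2 units below bulk. Blmh, a cysteine protease that inactivates bleomycin, averaged 0.19 ± 0.80 and 3.36 ± 0.48 (SD, n = 3 each), with 3.20 in bulk. The secreted matricellular protein Ccn3 averaged -0.29 ± 1.48 after 4 rounds, against 3.25 ± 0.72 after 2 rounds (SD, n = 3 each), with 2.38 in bulk. Among the 10 largest falls of genes in the top 25% of bulk, 5 lay nearer to bulk after 4 rounds. These 10 falls, whichever side lay nearer to bulk, also included Lsamp, Def6, Atp13a2, Dcaf12l1, Cer1 and Nos2.

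**Figure D2:**
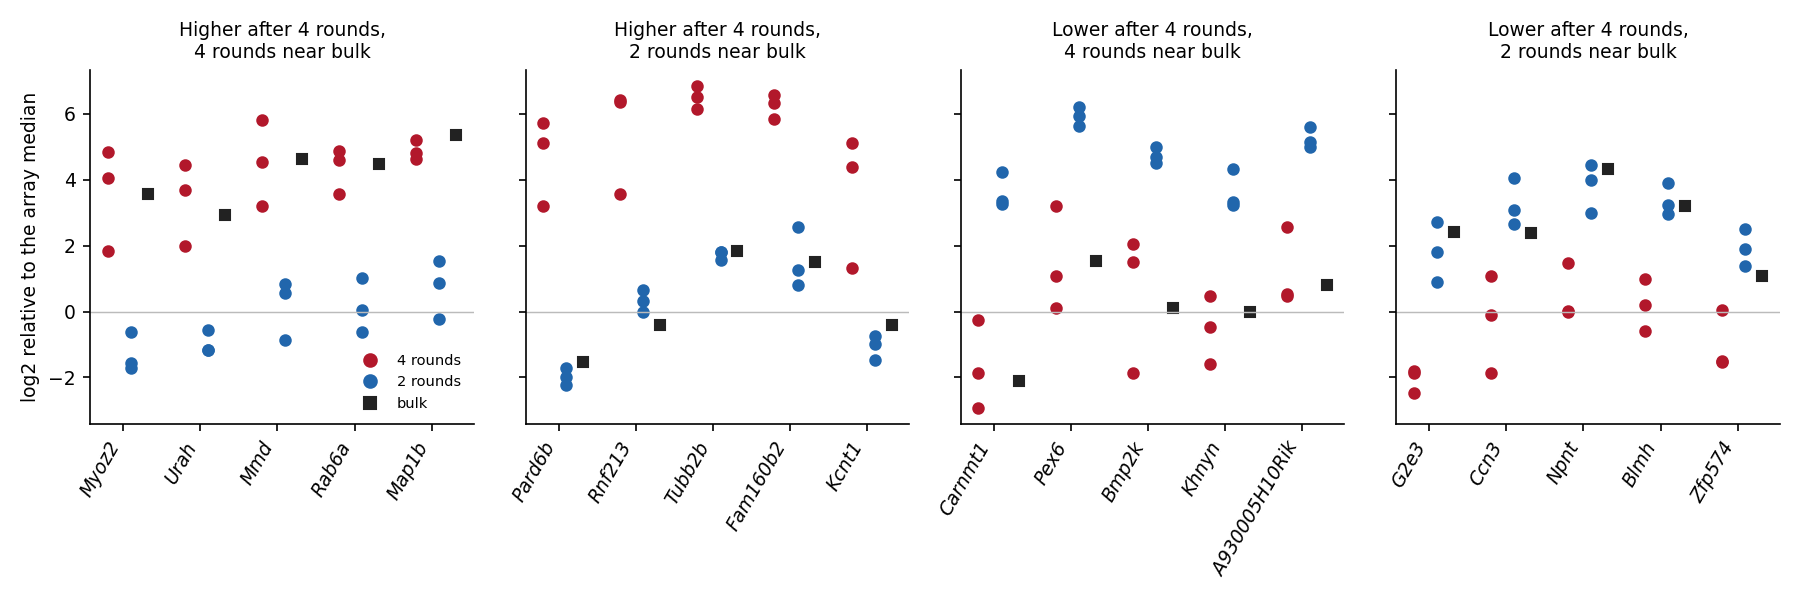
Level (log2 relative to the array median, vertical axis) of the 5 genes with the largest differences in each of 4 classes: higher or lower after 4 rounds, with the 4-round or the 2-round mean within 1 log2 unit of bulk. Points are single arrays (red 4 rounds, blue 2 rounds) and squares are the bulk array. Rab6a and Map1b reached the level of bulk after 4 rounds, whereas Npnt and Blmh lay at that level after 2 rounds.

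Rises were more frequent among probe sets with high levels in bulk, whereas the share of falls varied less. From the lowest to the highest 25% of bulk, 0.293%, 0.977%, 2.03% and 3.96% of the probe sets were higher after 4 rounds, beside 1.82% of all. The share that was lower was 1.71%, 1.46%, 1.81% and 1.95%, beside 1.73% of all. In the highest 25% the median level was 1.86 after 4 rounds, 1.55 after 2 rounds and 2.31 in bulk, and in the lowest 25% it was -1.25, -1.03 and -1.65. Of the 751 genes with arrays that did not overlap, 176 higher and 85 lower ones were in the top 25% of genes of bulk. The median genomic span of the higher genes was 29.3 kb (351 of 352 matched to RefSeq, GRCm38.p6), that of the lower genes 21.1 kb (401 of 401) and that of genes not called 20.02 kb (17393 of 17440), a description without a test. In the same order, their median levels in bulk were 1.71, 0.42 and 0.40, so that span and level were not separated.

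**Figure D3:**
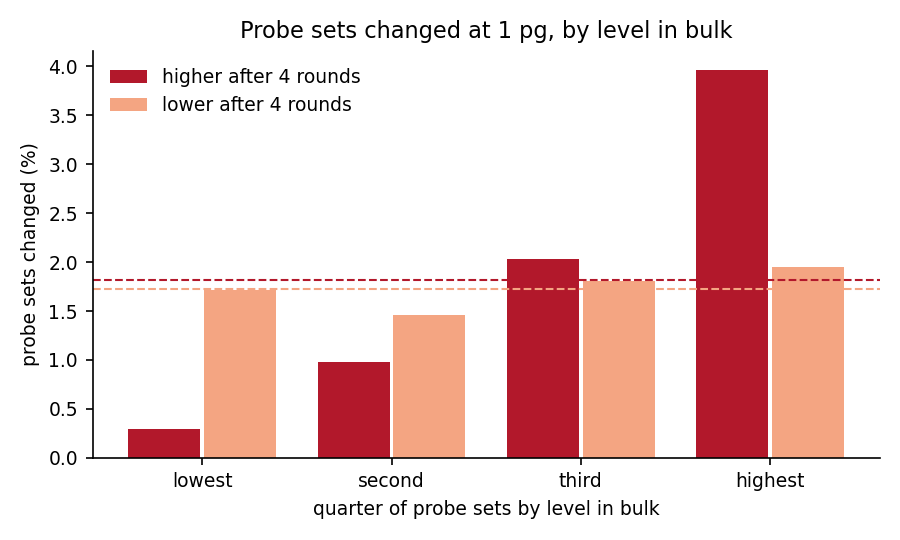
Percentage of probe sets changed at 1 pg (vertical axis) in 4 sets of 25% of the probe sets by level in bulk (horizontal axis), higher after 4 rounds in red and lower in orange. Dashed lines are the percentages over all probe sets, 1.82% and 1.73%, and the bars for higher probe sets run from 0.293% to 3.96%.

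Among gene groups of neurons, few members passed the test, and those that did were mostly higher after 4 rounds. Of 339 genes of the synapse, signalling, channels, cytoskeleton and traffic, 16 were higher (4.72%) and 2 lower (0.590%), beside 1.93% and 2.2% of all genes, with a median difference of -0.02 beside -0.13 for all genes. Their median level in bulk was high, at 1.92. In the highest 25% of bulk, 3.96% of probe sets were higher and 1.95% lower. The part of the level in bulk in these shares was not tested. Over all 44 gene lists 37 members changed (25 higher, 12 lower), and 15 (14 higher, 1 lower) without replicate 3 after 4 rounds. Snap25, a protein of synaptic vesicle fusion, was at 6.33, 5.69 and 5.83 after 4 rounds, against 3.04, 3.57 and 2.55 after 2 rounds, with 4.26 in bulk, and rose by 2.90 (SE 0.55, adjusted p = 0.0139 from limma). Its second probe set rose by 4.39 (adjusted p = 0.00132 from limma), and Snap25 was the 1 gene with several probe sets in which every probe set changed in the same direction. Gabrb2, a subunit of the GABA-A receptor, was at 6.22, 7.29 and 6.02 after 4 rounds, against 3.33, 3.34 and 3.03 after 2 rounds and 4.59 in bulk. Gabrb2 rose by 3.28 (SE 0.42, adjusted p = 0.00317 from limma), and bulk lay between the sides. Elavl4, an RNA-binding protein of neurons, averaged 3.71 ± 0.26 after 4 rounds, against 0.14 ± 1.02 after 2 rounds (SD, n = 3 each), with 3.36 in bulk.

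Ywhae and Ywhab, adaptor proteins of the family 14-3-3, were 2 of 7 measured members that rose (28.6%, beside 1.93% of all genes). The median difference over the 7 was 1.38, beside -0.13 for all genes. Of the 7 members, 6 lay nearer to bulk after 4 rounds (85.7%, beside 64.3% of all genes). Ywhae averaged 5.23 ± 0.48 after 4 rounds, against 2.34 ± 0.86 after 2 rounds (SD, n = 3 each), with 5.99 in bulk. In transport and the cytoskeleton, Kif2a, a kinesin that depolymerizes microtubules, averaged 3.45 ± 0.41 and -0.61 ± 0.64 (SD, n = 3 each), with 2.28 in bulk. Rab1a, a GTPase of traffic from the endoplasmic reticulum, averaged 5.25 ± 0.22 after 4 rounds, against 2.41 ± 0.85 after 2 rounds (SD, n = 3 each), with 5.25 in bulk. Rab1a and Rab6a were the 2 of 52 measured RAB genes that changed (3.85%, beside 4.14% of all genes), and the family had a median difference of 0.01. Dync1li2 of the dynein motor, Dpysl2 of axon growth, Atp2a2, the calcium pump of the endoplasmic reticulum, and Scn8a, a sodium channel, also rose, by 2.33, 2.18, 3.49 and 2.96 (adjusted p of 0.0162, 0.0413, 0.0123 and 0.0248 from limma). Tubg2, a gamma-tubulin, and Gnaz, a G protein subunit, were the 2 neuronal members that fell, at -1.71 and -3.04 (adjusted p of 0.0404 and 0.0419 from limma). Of 20 glutamate receptor genes 0 changed by limma (6 at an unadjusted p under 0.05), and their median difference of 0.81 was 0.09 with the median of each gene's probe sets.

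Few genes of energy supply and protein synthesis changed, and their shares are given beside the 1.93% higher and 2.2% lower of all genes. Of 69 genes of the respiratory chain and ATP synthase, Atp5g3, a subunit of the synthase, rose by 3.02 and Ndufs4, a subunit of complex I, fell by 3.38 (1.45% in each direction, adjusted p of 0.0176 and 0.00947 from limma). Ndufs4 was at 0.21, 1.65 and -0.70 after 4 rounds, against 4.40, 3.62 and 3.26 after 2 rounds, with -0.43 in bulk. Of 44 cytosolic ribosomal protein genes, 0 were higher and Rps16 was lower, at -2.94 ± 0.29 after 4 rounds, against -0.79 ± 0.26 after 2 rounds (SD, n = 3 each), with -2.86 in bulk, below the array median throughout. Of 73 mitochondrial ribosomal protein genes, 2 rose (Mrpl3 and Mrps18a, 2.74%) and 1 fell (Mrps26, 1.37%). Splicing and proteasome genes had 0 changed members of 33 and 34 by limma, against 12 and 3 at an unadjusted p under 0.05.

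Genes known from other tissues, such as testis, sensory epithelia and the embryonic hindbrain, had 0 higher and 5 lower members of 154 (3.25%, beside 2.2% of all genes). These were the homeobox gene Hoxb3, the sperm proteins Akap4 and Acrv1, the vomeronasal receptor Vmn1r54 and the taste receptor Tas1r2. Acrv1, of the sperm acrosome, was at -0.19, 0.90 and -1.77 after 4 rounds, against 3.73, 3.24 and 2.58 after 2 rounds, with -1.67 in bulk, and fell by 3.54 (SE 0.84, adjusted p = 0.0315 from limma). Hoxb3 averaged 0.92 ± 1.27 and 4.46 ± 0.42 (SD, n = 3 each), with 1.23 in bulk. Tas1r2, at 1.70 ± 0.12 after 4 rounds, against 4.12 ± 0.35 after 2 rounds (SD, n = 3 each), was the member whose level in bulk, 3.79, lay with the 2-round arrays. Among markers of other cells of the cortex, C1qa of microglia and Pdgfrb of pericytes fell, by 2.60 and 2.73 (adjusted p of 0.0386 and 0.0178 from limma). C1qa was at -0.17, -0.07 and -0.65 after 4 rounds, against 2.42, 1.62 and 2.87 after 2 rounds and -0.35 in bulk. They were the 1 changed gene of 12 microglial and the 1 of 13 vascular markers, and the median differences of these lists were 0.18 and -0.02 beside -0.13 for all genes.

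Of 9010 genes with several probe sets, 943 had a changed one, and in 895 of these exactly 1 probe set passed the test. Differences between probe sets of a gene were not tested. In 13 genes, probe sets changed in opposite directions. One probe set of Ddx5, an RNA helicase, was at 3.79, 3.27 and 3.36 after 4 rounds, against 0.39, 0.64 and -0.69 after 2 rounds, with 4.12 in bulk. Another probe set of the same gene was at 1.47, 1.77 and 1.03 after 4 rounds, against 4.14, 3.90 and 3.33 after 2 rounds, with 0.93 in bulk. Both thus moved to the level of bulk after 4 rounds, one by 3.36 and the other by -2.36 (adjusted p of 0.00937 and 0.0421 from limma). Oga, the enzyme that removes O-GlcNAc, Agk, a lipid kinase, and Rtn3, a reticulon, were others of the 13, all named after their values were seen.

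The control probe sets for the ends of transcripts overlapped between the sides for Gapdh and b-actin. The level of the 3' probe set minus that of the 5' probe set was 3.63, 4.37 and 4.09 for Gapdh after 4 rounds, 3.03, 4.20 and 5.58 after 2 rounds and 2.05 in bulk (exact two-sided permutation p = 0.8). For b-actin it was 0.57, -0.02 and 0.02 after 4 rounds, 1.29, -0.70 and 0.65 after 2 rounds and 1.09 in bulk (exact permutation p = 0.7). For the transferrin receptor it was 6.01, 6.26 and 5.98 after 4 rounds, 4.84, 5.74 and 3.79 after 2 rounds and 5.37 in bulk. The sides did not overlap there (exact permutation p = 0.1). The 5' probe set of the transferrin receptor lay below the array median on all of these arrays, so this difference rests partly on low values. Its 3' probe set was at 4.29, 4.73 and 4.21 after 4 rounds, 3.68, 3.74 and 3.55 after 2 rounds and 4.27 in bulk, without overlap (exact permutation p = 0.1). The 3' probe set of 18S ribosomal RNA, named after its values were seen, was at 5.55, 4.54 and 6.44 after 4 rounds, 3.26, 3.51 and 3.55 after 2 rounds and 6.07 in bulk. The sides overlapped for the other 18S probe sets. The middle one was at 6.28, 4.85 and 6.13 after 4 rounds, against 4.39, 5.55 and 5.15 after 2 rounds. The 5' one was at 4.00, 1.70 and 4.79 after 4 rounds, against 3.19, 2.58 and 2.45 after 2 rounds.

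The effect of the rounds differed between inputs. At 0.1 pg, measured on 6 other arrays, 1418 probe sets (3.15%) and 609 genes (3.35%) changed between 4 and 2 rounds. The count of probe sets was 219 without replicate 1 after 4 rounds and 3453 without replicate 3 after 2 rounds of that input. Of the 818 probe sets that were higher at 1 pg, 66.3% were higher at 0.1 pg after 4 rounds, and 44 were called higher (5.38%) and 7 lower (0.856%), beside 1.41% and 1.74% of all. Of the 781 that were lower at 1 pg, 70.7% were higher after 4 rounds at 0.1 pg, beside 49.8% of all probe sets, and 73 were called higher (9.35%) and 26 lower (3.33%). The difference between the effects of rounds passed the test for 184 of the 818 (22.5%) and 436 of the 781 (55.8%), beside 3.59% of all probe sets (1.14% with a higher difference at 1 pg and 2.46% with a lower one) and 4% of all genes, although these sets were chosen by the difference at 1 pg, which enters that test. Tubb2b, Fam160b2 and Scarb2, a lysosomal membrane protein, rose by 4.78, 4.70 and 4.30 at 1 pg and by 5.09, 5.06 and 4.95 at 0.1 pg (adjusted p at 0.1 pg of 0.00182, 0.00361 and 0.00514 from limma). Lsamp fell by 4.32 at 1 pg, whereas at 0.1 pg it averaged 7.42 ± 0.59 after 4 rounds, against 4.31 ± 0.60 after 2 rounds (SD, n = 3 each), a rise of 3.11 (adjusted p = 0.0222 from limma). Ccn3 fell by 3.55 at 1 pg and rose by 3.33 at 0.1 pg (adjusted p = 0.00997 from limma), with averages there of 3.57 ± 0.04 after 4 rounds, against 0.24 ± 0.52 after 2 rounds (SD, n = 3 each). Pdgfrb showed the same pair of directions, at -2.73 and 2.98 (adjusted p at 0.1 pg of 0.0108 from limma).

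**Figure D4:**
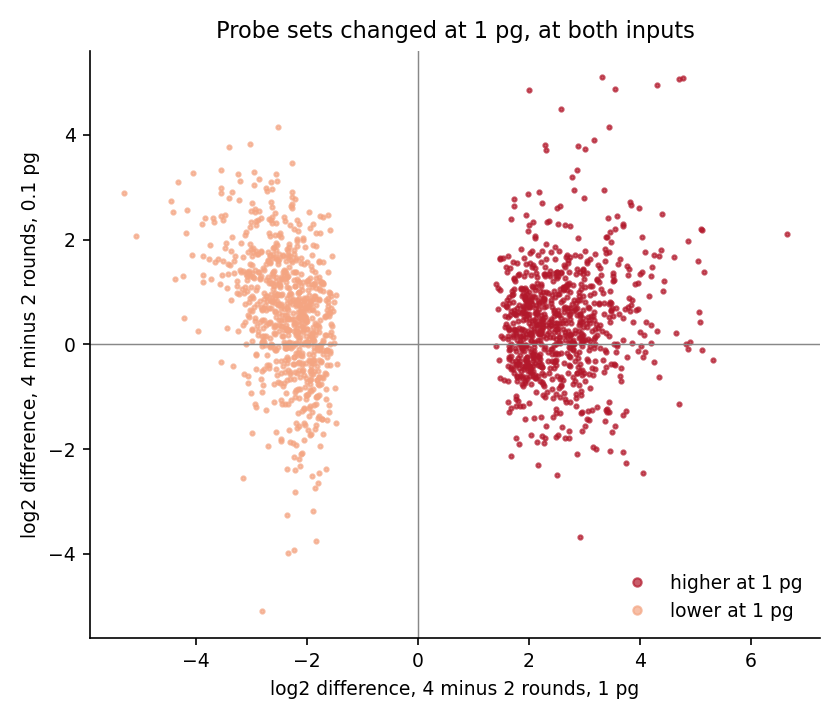
Log2 difference between 4 and 2 rounds at 1 pg (horizontal axis) and at 0.1 pg (vertical axis) for the 1599 probe sets changed at 1 pg, higher ones in red and lower ones in orange. Most points of both colours lie above 0 on the vertical axis, 66.3% of the higher and 70.7% of the lower ones.

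Across all 17 arrays, the probe sets that were lower after 4 rounds at 1 pg were high on the 2-round arrays of 1 pg and on the 4-round arrays of 0.1 pg. Their median level was 0.02, 0.81 and -0.26 on the 4-round arrays of 1 pg, against 2.87, 2.60 and 2.67 on the 2-round arrays of 1 pg and 0.13 in bulk. It was 0.21, 0.23 and 0.70 on the 4-round arrays of 10 pg, whereas on those of 0.1 pg it was 2.47, 2.48 and 1.89. The probe sets that were higher had medians of 2.01, 1.55 and 2.34 on the 4-round arrays of 1 pg, 1.41, 1.50 and 1.20 on those of 10 pg and 1.29 in bulk, against -0.53, -0.42 and -0.61 on the 2-round arrays of 1 pg. On the 4-round arrays of 0.1 pg the same probe sets were at -0.12, -0.16 and 0.24. On the 2-round arrays of 0.1 pg, the lower probe sets were at 1.26, 1.24 and 1.76 and the higher ones at -0.35, -0.22 and -0.43. On the 10 pg array after 2 rounds they were at 0 and 0.51. Both sets were chosen by the 1 pg arrays, so the order of the 1 pg groups was fixed by that choice. The choice also made it likely that other arrays would lie to the same side of the 2-round arrays of 1 pg. Bulk, the 10 pg arrays after 4 and after 2 rounds and the 4-round arrays of 0.1 pg all did so, and no conclusion is drawn from it.

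**Figure D5:**
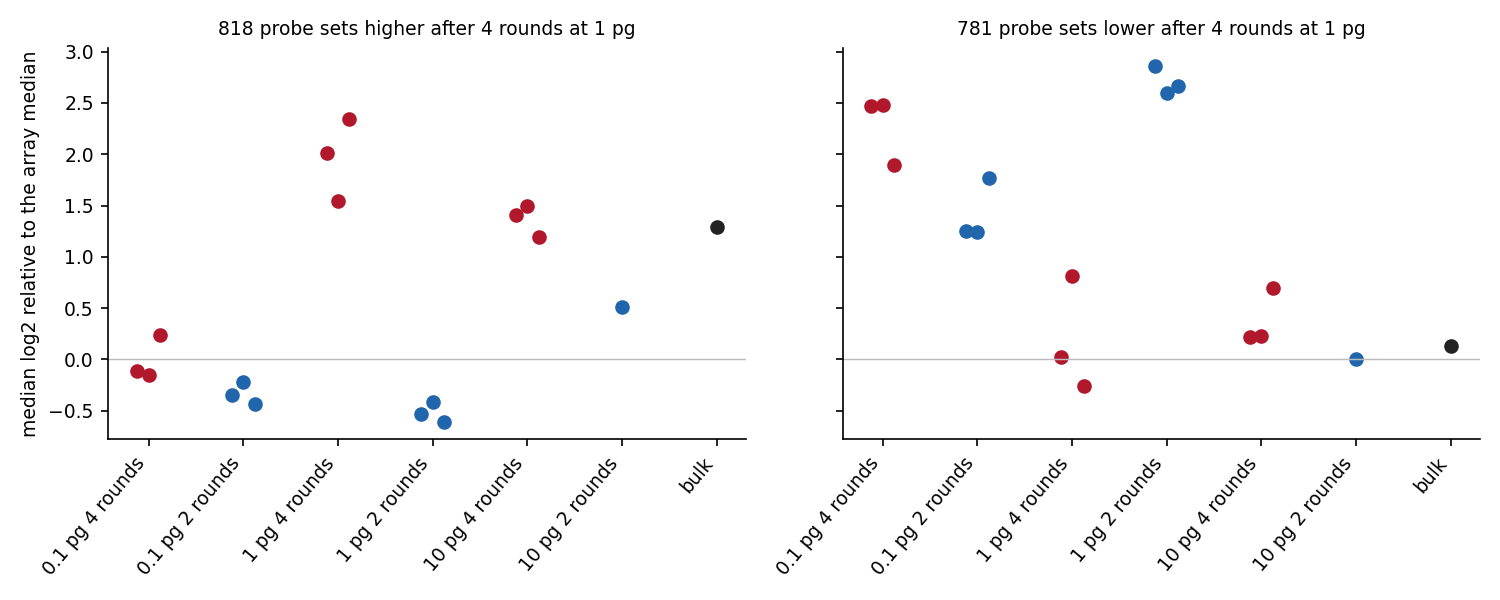
Median level (log2 relative to the array median, vertical axis) of the 818 probe sets higher (left) and the 781 lower (right) after 4 rounds at 1 pg, on each of the 17 arrays by group (red 4 rounds, blue 2 rounds, black bulk). The lower probe sets were at 1.89 to 2.48 on the 0.1 pg arrays after 4 rounds, against 2.60 to 2.87 on the 1 pg arrays after 2 rounds.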

How the data were processed

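The authors summarized the Affymetrix mouse arrays with RMA 2.0, using the upper decile of the probes, and deposited log2 values from 1.56 to 15.8 without the centring and scaling of their methods (array medians 5.64 to 6.01). Both steps were applied here over the 45037 probe sets left after 64 controls, and values were multiplied by the mean range, 4.63. The array's annotation of 2016 gives 1 symbol for 34945 probe sets, several for 932 and none for 9160, and 0 symbols were updated.

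limma 3.58.1 in R 4.3.3 fitted 7 group means over 17 arrays (16.4 total degrees of freedom). Exact permutation tests were two-sided, in scipy 1.17.1. The fit was tested on simulated data, where it recovered 14 of 100 changes of 2 log2 units and 83 of 100 changes of 4 log2 units. Most changes of 2 log2 units were thus missed there.

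The members and the 44 gene lists were chosen with earlier results of these data known. Named genes are, among called genes whose arrays do not overlap, the 15 largest rises and falls, the 10 largest of each in the top 25% of bulk, and the 5 largest with either side within 1 log2 unit of bulk, and the 2 highest and 2 lowest of each list. Control probe sets of Gapdh, b-actin and the transferrin receptor and the genes Pex6, Lsamp and Bmp2k were added. Alternatives were other scalings, a filter on low values, other fits and tests, and leaving out each array.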

Additional observations from a re-analysis of the deposited data

Results flagged for a closer look

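For 40 of the 70 called genes under the naming rule, the effect of 4 against 2 rounds differed between 1 and 0.1 pg by the test of the difference itself (interaction in limma, adjusted p of 0.00242 to 0.0498), beside 4% of all genes. A positive value means that the difference was higher at 1 pg, and the genes were chosen by their difference at 1 pg, which enters this test. It was positive for 9 genes, at 4.44 for Nek4, 4.97 for Mmd, 4.16 for Rab6a, 3.24 for Map1b, 4.30 for Kif2a, 2.88 for Elavl4, 3.34 for Gabrb2, 3.67 for Gng10 and 2.91 for Arc.

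The other 31 genes were lower after 4 rounds at 1 pg, and 30 of them had a positive difference at 0.1 pg. Of all probe sets lower at 1 pg, 70.7% were higher after 4 rounds at 0.1 pg, beside 49.8% of all probe sets. The 31 genes were chosen by a negative interaction value, in which the 0.1 pg difference is subtracted, so the choice favoured a positive difference there. Among the largest falls at 1 pg, the value was -8.18 for Carnmt1, -7.19 for Pex6, -7.43 for Lsamp, -5.53 for Gab1, -6.30 for Bmp2k, -6.71 for Khnyn, -5.76 for A930005H10Rik, -4.22 for Nqo2, -6.19 for Taf8, -5.06 for Cd93, -5.19 for Adgrg3, -5.55 for G2e3, -6.24 for Prima1, -5.63 for Pcyt1a and -4.97 for Gm1976. Among the other named falls outside the gene lists, it was -6.88 for Ccn3, -7.17 for Def6, -2.91 for Npnt, -4.89 for Atp13a2, -4.23 for Blmh, -4.55 for Dcaf12l1, -6.83 for Cer1, -3.65 for Nos2 and -3.44 for Zfp574. List members had -4.90 for Ndufs4, -5.32 for Akap4, -6.52 for Acrv1, -6.44 for Hoxb3, -4.12 for Tas1r2, -3.91 for C1qa and -5.71 for Pdgfrb. At 0.1 pg alone, 6 of the 40 passed the test, beside 3.35% of all genes.

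Among the control probe sets outside the comparison, the 5' probe sets of a bacterial spike transcript, Phe, stood above bulk on replicates 1 and 3 after 4 rounds. AFFX-r2-Bs-phe-5_at was at 3.49, -1.63 and 4.50 after 4 rounds, against -1.67, -2.67 and -0.97 after 2 rounds, with -3.15 in bulk, so that its highest level was 7.65 above bulk. AFFX-PheX-5_at was at 4.86, -0.72 and 5.49 after 4 rounds, against -0.68, -0.42 and 0.06 after 2 rounds, with -1.25 in bulk and a highest level of 6.73 above it. Replicate 2, the 4-round array closest to the 2-round arrays in its correlations, was the 4-round array without this signal. The part of this signal in the results was not tested.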

How the results depend on the processing

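The count of changed probe sets, 1599, was 1819 with the deposited values, 1815 with median centring alone, 1543 with quantile normalization, 1869 of the probe sets above the median, 1078 from the 6 arrays alone and 1630 with a variance trend. It was 1 by the methods' t-test (0 genes, against 3825 at an unadjusted p under 0.05 and 753 by limma) and 0, also for genes, at the false discovery rate of 0.1% that the methods name (10020 probe sets and 4359 genes at an unadjusted p under 0.05). The higher share, 51.2%, was 57.9% with quantile normalization. Genes numbered 492 from the 6 arrays alone.

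The replicate numbers did not pair the arrays: same-numbered deviations correlated at -0.02, -0.06 and -0.02. In a fit of the 6 arrays with the replicate block, 0 probe sets and 0 genes passed an adjusted p under 0.05 in limma, against 10125 and 4356 at an unadjusted p under 0.05.

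Leaving out 1 array of the 6 gave 138 (2 rounds, replicate 3) to 3400 (4 rounds, replicate 2) changed probe sets and 71 to 1623 genes, and 499 to 2647 probe sets whose effect differed between inputs. Without the other 1 pg arrays, the counts were 216 and 316 (4 rounds, replicates 1 and 3) and 224 and 453 (2 rounds, replicates 1 and 2). Alternatives chosen after seeing the data were leaving out arrays of other groups, 10 pg in place of bulk, and distances by level. Without 1 array of 0.1 pg after 2 rounds, 2758, 2297 and 2562 probe sets changed at 1 pg (replicates 1, 2 and 3). At 0.1 pg the count was 219 to 3453, with the lowest without replicate 1 after 4 rounds and the highest without replicate 3 after 2 rounds. Members of gene lists that changed, 37, were 15 without replicate 3 after 4 rounds.

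The share nearer to bulk after 4 rounds was 56.7% to 78.1% of the higher and 82.1% to 89.5% of the lower probe sets when an array was left out. Among the lower it was 84.7% with median centring alone and 84.5% from the 6 arrays. Where the distances differed by over 1 log2 unit it was 80.5% of the higher and 91.9% of the lower, beside 77.5% of all. From the mean of 10 pg after 4 rounds it was 81.9% of the higher (66.7% of all), and from the 10 pg array after 2 rounds 54.8% and 77.0% (54.2% of all). The difference in distance, -0.25, stayed negative in all 14 alternatives run. For the median distance from bulk it was -0.29 to -0.24, for the mean absolute difference -0.22 and for 1 minus Pearson's r -0.07. Measured from the mean of 10 pg after 4 rounds it was -0.27, and from the 10 pg array after 2 rounds only -0.07. The difference in the top 5% kept, 2.38 percentage points, was -3.41 with the highest-mean probe set and -6.23 for the top 1%. With an array left out, the 3' minus 5' difference of Gapdh (-0.24) was -0.86 to 0.41, positive without replicate 3 after 2 rounds, and that of b-actin (-0.22) was -0.78 to 0.22, positive without replicate 1 after 2 rounds.

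Of the 70 called genes under the naming rule, 66 to 70 stayed called under each scaling, 58 from the 6 arrays alone, 69 without replicate 2 after 4 rounds, and 27 to 42 without any other of the 6 arrays. Protein lengths of the changed genes were not compared, and genomic spans were used. The causes were not tested.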
